A study of Mus musculus with 18 samples.

Results

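This account concerns 28 genes of cholesterol synthesis and of the SREBP2 pathway that controls it, read from a table of gene counts for mouse CD8+ T cells. The cells had been given lithocholic acid (LCA), a bile acid that gut bacteria derive from one made in the liver. The genes were chosen by name, as those that make sterol, sense it or move it, with earlier results of these data known. All 28 were among the 24537 gene symbols of the table, and all 28 had enough counts to enter the test of 11651 genes.

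Naïve CD8+ T cells received CRISPR ribonucleoprotein before activation through CD3 and CD28. Cells labelled KO received a guide kit against Nur77, the orphan nuclear receptor encoded by Nr4a1, and cells labelled WT a scrambled guide. Each was then kept overnight with no LCA (control), with 10 µM LCA (LCA10) or with 50 µM LCA (LCA50), and bulk RNA was sequenced from ultra-low input libraries. The groups were KO control, KO LCA10, KO LCA50, WT control, WT LCA10 and WT LCA50, with 3 libraries each and 18 in all. The labels mention no cloning step, so edited and unedited cells may be mixed, and how many cells were edited is not stated in the labels. Nor do they say if replicates came from different mice or cultures, so p-values measure spread among libraries that may be technical. Library numbers follow group order, and a trend along that order cannot be told apart from treatment.

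Cholesterol is built from acetyl-CoA through mevalonate, isoprenoid units and squalene, and the last ring and side-chain steps make cholesterol itself. When sterol in the endoplasmic reticulum is low, SCAP carries the membrane-bound factor SREBP2 to the Golgi, where a pair of proteases frees the part that enters the nucleus and activates the genes of the pathway. When sterol is plentiful, the INSIG proteins hold SCAP back. Activated T cells switch this program on for membrane growth and division.

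At 50 µM LCA the estimated change was below 0 for 25 of the 28 genes in KO cells and 22 in WT cells. Of all 11651 tested genes it was below 0 for 5734 in KO and 5710 in WT. By the test defined below, 9 fell in KO, where 3.42% of all tested genes did, and 12 in WT, where 4.93% did. These counts within guides moved with the libraries and the model used. Averaged over the guides, 19 of the 28 genes fell, among them the enzymes Hmgcs1, Sqle, Cyp51 and Msmo1, the regulator Insig1 and the transcription factor Srebf2. A single member rose, the lysosomal cholesterol exporter Npc1. A gene is said to have risen or fallen where edgeR's quasi-likelihood test gave a Benjamini-Hochberg adjusted p under 0.05 over all tested genes, and changes are log2 fold changes ± standard error. Of all tested genes, 8.66% fell and 7.86% rose in that comparison. The median change of the members was -0.44, against 0.01 for all tested genes. Between guides no member's response to LCA differed by the test of the difference, which called 0% of all tested genes. A missed threshold there does not show equal responses.

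Total counts per library ran from 4113713 to 5945518, and from 14936 to 17518 genes had a count. Levels are CPM, counts scaled to TMM-adjusted library size. Nr4a1 averaged 10.6 ± 2.48, 9.91 ± 0.823 and 10.1 ± 4.87 CPM in KO control, LCA10 and LCA50, and 9.6 ± 3.24, 11.1 ± 4.73 and 13.6 ± 5.18 CPM in WT (SD, n = 3 each). Small edits at the guide's cut site can leave transcript levels as they were, so these counts neither back the KO label nor oppose it. Of 9 CD8 T cell markers, 7 were in the table, and their summed level was 3568 to 4774 CPM in every library. That sum was 3568 to 4454 CPM in KO LCA50, against 4550 to 4599 CPM in KO control, and 3920 to 4492 CPM in WT LCA50, against 4692 to 4774 CPM in WT control. In bulk RNA, fewer cells of a type and less RNA per cell cannot be told apart. The summed CD4 T cell markers (4 genes, mostly Foxp3 and Zbtb7b, with Cd4 at no more than 6 counts in a library) were 18.6 to 36.2 CPM in KO LCA50, against 14.3 to 18.6 CPM in KO control, and 20.7 to 25.7 CPM in WT LCA50, against 12.6 to 18 CPM in WT control, higher with both guides though the KO ranges almost met. The B cell sums (6 genes, mostly Cd79b) were 5.5 to 7.13 CPM in KO LCA50, against 9.47 to 11.9 CPM in KO control, and 8.03 to 9.66 CPM in WT LCA50, against 6.79 to 13.6 CPM in WT control, lower in KO and overlapping in WT. Over all libraries the sums were 12.4 to 79.3 CPM for myeloid cells (10 genes) and 0.754 to 57.3 CPM for red cells and platelets, and the 2 natural killer and gamma delta T cell markers in the table reached at most 2.34 CPM. The ribosomal RNA precursor Rn45s took 1.26% to 1.49% of counts in KO LCA50, against 1.19% to 1.22% in KO control, and 1.53% to 1.68% in WT LCA50, against 0.996% to 1.42% in WT control. Lars2, which encodes a mitochondrial tRNA synthetase, took 0.358% to 0.375% in KO LCA50, against 0.286% to 0.317% in KO control, and overlapped between the WT groups. From 16564 to 17518 genes had a count in WT LCA50, against 15032 to 16438 in WT control. The part of these markers and shares in the results was not tested.

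The summed level of the 28 genes ran downward with dose. In KO cells it was 3306 ± 52.5 CPM in control, 3047 ± 63.8 CPM at LCA10 and 2458 ± 518 CPM at LCA50. In WT cells it was 3474 ± 17.3 CPM in control, 3150 ± 136 CPM at LCA10 and 2585 ± 217 CPM at LCA50 (SD, n = 3 each). No LCA50 library reached any control library, and no LCA10 library reached any control library of its guide. The KO LCA50 libraries held 1863, 2805 and 2706 CPM, and the WT LCA50 libraries 2823, 2398 and 2535 CPM. KO LCA50 replicate 1 was far below the others. It was the lowest of all 18 libraries for 20 of the 28 genes, which was not counted over all tested genes. It also had the lowest total count. Its summed level of 1470 olfactory, pheromone and trace amine receptor genes, which T cells should not express, was 164 CPM, against 47.2 and 93.4 CPM in KO LCA50 replicates 2 and 3. In the WT LCA50 libraries this receptor background was 121, 139 and 223 CPM. Results that rest on replicate 1 are given with and without it, and the counts at LCA50 are also given with receptor background in the model and without both libraries of highest background, KO LCA50 replicate 1 and WT LCA50 replicate 3.

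**Figure D1:**
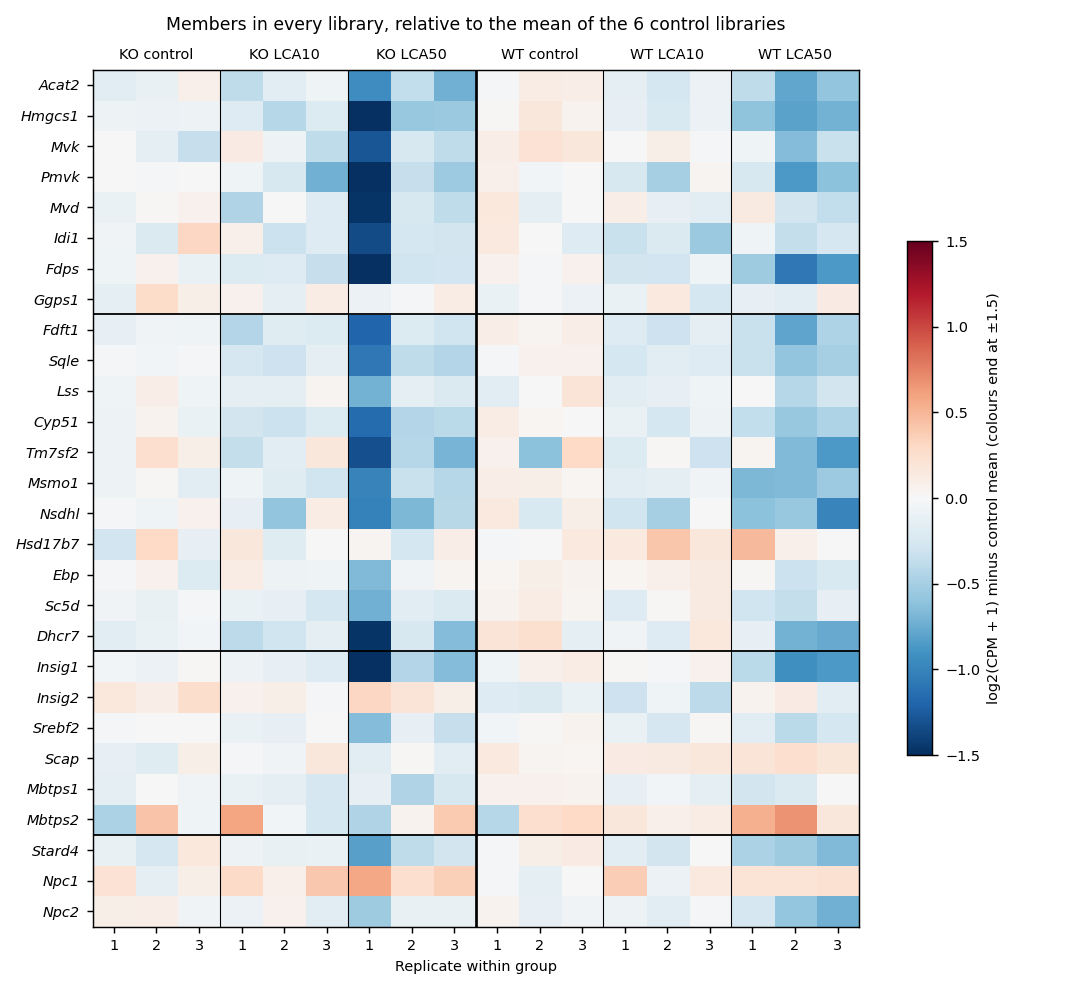
Level of each of the 28 genes (rows, in blocks for mevalonate and isoprenoid steps, squalene to sterol, SREBP control, and sterol transport) in each of the 18 libraries (columns), as log2(CPM + 1) minus the mean of the 6 control libraries. Most rows are blue at LCA50 with both guides, KO LCA50 replicate 1 is the darkest column, and Npc1 is red in all 6 LCA50 libraries.

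Because the members moved together, promoter windows are shown for 6 of them. Hmgcs1 is shown for its match to the core of a sterol regulatory element, and the others have the smallest p at LCA50 averaged over guides among those with a window. The windows come from RefSeq (GRCm38.p6) and run 5′ to 3′ from 250 bases before to 50 bases after an annotated start of the gene. Of the 28 genes, 23 had 1 or more windows. A gene is counted as holding a motif if any of its windows does. Shares of all windows count each window by itself, so they are not a like measure. Capitals mark matches to a CCAAT box (CCAAT or its complement ATTGG, the site of the factor NF-Y, which works beside SREBP at many sterol genes) and to the core of a sterol regulatory element (TCACNCCAC on either strand).
Hmgcs1: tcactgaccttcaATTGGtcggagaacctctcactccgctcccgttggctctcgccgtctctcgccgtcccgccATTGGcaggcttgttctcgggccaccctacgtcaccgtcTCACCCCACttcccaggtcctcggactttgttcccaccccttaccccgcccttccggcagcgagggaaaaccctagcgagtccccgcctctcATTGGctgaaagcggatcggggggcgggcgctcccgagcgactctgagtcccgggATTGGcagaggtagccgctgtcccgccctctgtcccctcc
Msmo1: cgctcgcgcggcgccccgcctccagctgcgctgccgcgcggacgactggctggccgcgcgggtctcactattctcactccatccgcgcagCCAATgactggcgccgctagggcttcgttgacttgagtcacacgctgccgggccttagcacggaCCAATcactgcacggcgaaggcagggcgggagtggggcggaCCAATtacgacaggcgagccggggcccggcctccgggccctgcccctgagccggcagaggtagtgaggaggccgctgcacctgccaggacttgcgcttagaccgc
Acat2: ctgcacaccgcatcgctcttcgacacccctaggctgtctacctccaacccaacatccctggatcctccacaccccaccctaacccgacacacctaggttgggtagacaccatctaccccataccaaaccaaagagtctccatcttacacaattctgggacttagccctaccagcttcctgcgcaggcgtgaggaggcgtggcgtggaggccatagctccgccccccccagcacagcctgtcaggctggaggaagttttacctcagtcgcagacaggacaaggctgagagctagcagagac
Nsdhl: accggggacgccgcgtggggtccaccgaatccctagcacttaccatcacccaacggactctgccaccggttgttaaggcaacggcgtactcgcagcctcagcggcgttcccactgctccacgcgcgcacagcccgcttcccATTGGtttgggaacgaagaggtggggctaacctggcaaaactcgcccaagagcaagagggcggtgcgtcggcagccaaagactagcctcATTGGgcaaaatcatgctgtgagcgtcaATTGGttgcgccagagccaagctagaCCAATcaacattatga
Cyp51: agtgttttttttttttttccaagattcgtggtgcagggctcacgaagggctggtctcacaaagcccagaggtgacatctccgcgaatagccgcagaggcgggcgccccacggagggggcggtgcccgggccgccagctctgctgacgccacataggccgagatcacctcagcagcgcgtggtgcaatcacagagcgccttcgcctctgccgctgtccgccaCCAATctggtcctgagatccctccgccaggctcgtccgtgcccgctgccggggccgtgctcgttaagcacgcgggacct
Insig1: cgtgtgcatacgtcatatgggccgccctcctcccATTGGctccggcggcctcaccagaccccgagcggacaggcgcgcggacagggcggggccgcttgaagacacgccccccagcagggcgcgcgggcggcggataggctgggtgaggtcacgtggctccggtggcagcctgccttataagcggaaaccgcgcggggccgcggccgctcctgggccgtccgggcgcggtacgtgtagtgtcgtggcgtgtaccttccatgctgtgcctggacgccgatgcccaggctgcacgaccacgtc
The Hmgcs1 window lies at chr13:119690101-119690400, plus strand. Its element core, TCACCCCAC, begins 137 bases before the start, and 4 CCAAT boxes lie around it. The Msmo1 window (chr8:64733529-64733828, minus strand) holds 3 CCAAT boxes, and the Nsdhl window (chrX:72918271-72918570, plus strand) holds 4. The Cyp51 window (chr5:4104648-4104947, minus strand) and the Insig1 window (chr5:28071162-28071461, plus strand) hold 1 each, and the Acat2 window (chr17:12960676-12960975, minus strand) holds 0. Over all members with a window, 19 of 23 (82.6%) held a CCAAT box on either strand, against 43.1% of 8982 other tested genes and 37.4% of all 32851 windows. The element core was found in 1 of 23 members (4.35%), against 1.39% of the other tested genes and 1.24% of all windows. The longer form of the element, with an A before that core, was found in 0 of 23 members, against 0.167% of the other tested genes and 0.234% of all windows. A GC box (GGGCGG, either strand) was found in 20 members (87.0%), against 68.8% of the other tested genes and 35.7% of all windows, and an E-box (CACGTG) in 5 (21.7%), against 11.9% and 7.15%. A window can hold several motifs, and of these motifs only the longer element contains another, its core. A match describes letters and is not a measured binding site, and a window without one says nothing of the factor.

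**Figure D2:**
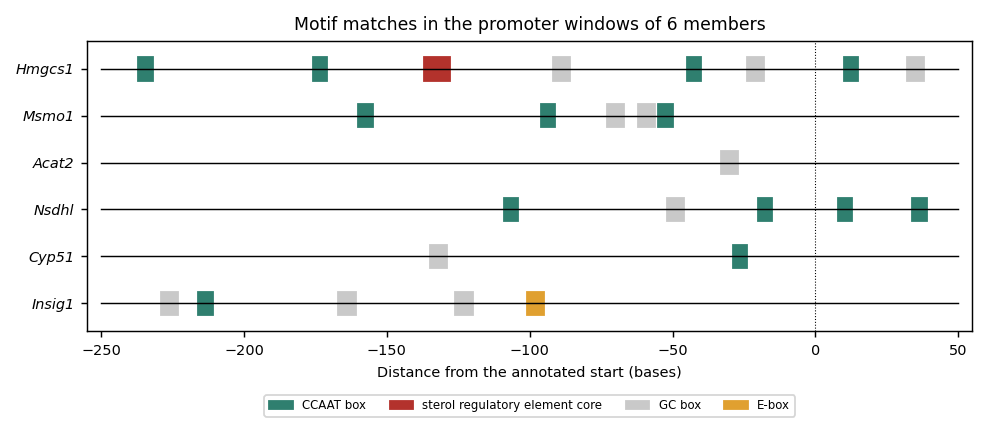
Motif matches along the promoter windows of 6 members, with distance in bases from the annotated start on the horizontal axis. CCAAT boxes are green, the sterol regulatory element core red, GC boxes grey and the E-box orange, and the core stands in the Hmgcs1 window between a pair of CCAAT boxes.

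Among the 8 genes of the mevalonate and isoprenoid steps, 5 fell at LCA50 averaged over the guides, and 0 rose. In that comparison 8.66% of all tested genes fell and 7.86% rose. Hmgcs1, the synthase that joins acetyl-CoA units into HMG-CoA, was the most abundant member per kilobase of exon, at 85.5 CPM per kilobase in WT control. It stood at 105, 250 and 253 CPM in KO LCA50, against 354, 351 and 351 CPM in KO control. In WT LCA50 it stood at 244, 212 and 227 CPM, against 375, 418 and 386 CPM in WT control. Every LCA50 library was below every control library. The change was -0.79 ± 0.16 averaged over guides (edgeR adjusted p = 0.00419), and the level fell by 42.1%. Within guides it was -0.79 ± 0.23 in KO (edgeR adjusted p = 0.0587) and -0.79 ± 0.22 in WT (edgeR adjusted p = 0.0479). Without KO LCA50 replicate 1 the KO change was -0.48 ± 0.08 (edgeR adjusted p = 6.07e-05), a smaller change with a smaller standard error.

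Acat2, the cytosolic thiolase that opens the pathway, fell with both guides. Its level was 52.2, 77.2 and 60.3 CPM in KO LCA50, against 89.9, 93 and 106 CPM in KO control. It was 76.6, 58 and 65.9 CPM in WT LCA50, against 98.5, 108 and 108 CPM in WT control. The groups did not overlap, and the changes were -0.60 ± 0.12 in KO (edgeR adjusted p = 0.00141) and -0.65 ± 0.12 in WT (edgeR adjusted p = 0.000432). Acat2 shares 97.7% of 1477 bases with Acat3, whose averaged change was 0.04 ± 0.06 and was not called. It also shares 98.7% of 445 bases with Tcp1, whose averaged change was 0.06 ± 0.04 and was not called. Reads may thus be split between these genes.

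Fdps, which makes farnesyl pyrophosphate, stood at 60.8, 146 and 148 CPM in KO LCA50, against 173, 188 and 168 CPM in KO control. In WT LCA50 it stood at 124, 85.4 and 99.1 CPM, against 189, 177 and 189 CPM in WT control. The LCA50 libraries were all lower, with replicate 1 of KO LCA50 lowest by far. The averaged change was -0.71 ± 0.17 (edgeR adjusted p = 0.0116), with -0.85 ± 0.24 in WT (edgeR adjusted p = 0.0459) and -0.57 ± 0.24 in KO (edgeR adjusted p = 0.209). Without that replicate the KO change was -0.26 ± 0.10 (edgeR adjusted p = 0.178), and the difference of the responses, KO minus WT, was 0.59 ± 0.14 (edgeR adjusted p = 0.11). Fdps has processed pseudogenes that could share its reads. Of its exon bases, 26.7% overlap the protein-coding gene Gm43738 on the same strand, which is not among the counted symbols. The mevalonate kinase Mvk (-0.46 ± 0.13) and the phosphomevalonate kinase Pmvk (-0.65 ± 0.17) also fell on average.

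The other 3 genes of this step were not called at LCA50 averaged over the guides. The decarboxylase Mvd stood at 25, 59.8 and 54.2 CPM in KO LCA50, against 66.4, 71.9 and 74.4 CPM in KO control, and at 77.9, 58.3 and 54.9 CPM in WT LCA50, against 79.1, 64.1 and 70.8 CPM in WT control. The KO groups were apart and the WT groups overlapped, and the averaged change was -0.38 ± 0.15 (edgeR adjusted p = 0.102). The isomerase Idi1, with few counts, had -0.42 ± 0.17 (edgeR adjusted p = 0.0971). Ggps1, which makes geranylgeranyl pyrophosphate for protein prenylation and so leaves the sterol route, had -0.03 ± 0.09. Genes that use these isoprenoids downstream were looked at as a list of prenyltransferases, prenyl-protein processing enzymes and the dolichol and ubiquinone enzymes. By edgeR's adjusted p, 0 of its 13 tested genes fell and 0 rose at LCA50 averaged over the guides. Of all tested genes, 8.66% fell and 7.86% rose there. At an unadjusted p under 0.05, 0 of the 13 passed, where 1710 of all 11651 tested genes were lower and 1646 higher. The median change of the list was 0.02.

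Among the 11 genes from squalene to cholesterol, 9 fell at LCA50 averaged over the guides and 0 rose. In that comparison 8.66% of all tested genes fell and 7.86% rose. Fdft1 makes squalene, and Sqle oxidises it in a rate-limiting step. Sqle stood at 133, 217 and 209 CPM in KO LCA50, against 276, 274 and 276 CPM in KO control. In WT LCA50 it was 225, 187 and 200 CPM, against 280, 295 and 295 CPM in WT control. All LCA50 libraries lay below all control libraries. The change was -0.56 ± 0.11 in KO (edgeR adjusted p = 0.00173) and -0.51 ± 0.11 in WT (edgeR adjusted p = 0.00295). Fdft1 had 33.1, 66.4 and 62.2 CPM in KO LCA50, against 70.3, 74.1 and 73.7 CPM in KO control, and 60.9, 44 and 55.6 CPM in WT LCA50, against 82.6, 79.3 and 82.1 CPM in WT control. It fell by 0.51 ± 0.11 averaged over guides (edgeR adjusted p = 0.00119). Of its exon bases, 18.3% overlap Ctsb on the opposite strand, which fell too (-0.34 ± 0.06), and no source used here says if counting used strand.

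Cyp51 removes a methyl group from lanosterol, and Msmo1 and Nsdhl then act on other methyl groups of the ring. Cyp51 was at 149, 247 and 253 CPM in KO LCA50, against 317, 348 and 312 CPM in KO control. In WT LCA50 it was at 258, 225 and 242 CPM, against 360, 341 and 333 CPM in WT control. The groups were apart, with changes of -0.59 ± 0.13 in KO (edgeR adjusted p = 0.00634) and -0.51 ± 0.12 in WT (edgeR adjusted p = 0.0132). Msmo1 gave the smallest adjusted p of the members on average (-0.59 ± 0.08, edgeR adjusted p = 7.4e-07). Its levels were 73.6, 117 and 110 CPM in KO LCA50, against 140, 150 and 133 CPM in KO control, and 92.9, 93.8 and 101 CPM in WT LCA50, against 159, 158 and 152 CPM in WT control. Nsdhl had 21.9, 27.9 and 33.8 CPM in KO LCA50, against 44.8, 43.4 and 47.3 CPM in KO control, and 29.2, 30.1 and 22.4 CPM in WT LCA50, against 50.4, 38.3 and 48.3 CPM in WT control. Neither gene overlapped between LCA50 and control with either guide, and Nsdhl fell by 0.72 ± 0.12 on average.

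Tm7sf2, a sterol reductase, was among the least abundant members at 3.09 CPM per kilobase in WT control. It had 5.01, 10.1 and 8.25 CPM in KO LCA50, against 13.2, 16.8 and 14.9 CPM in KO control, and fell by 0.93 ± 0.27 (edgeR adjusted p = 0.0358). In WT LCA50 it had 14.4, 8.44 and 7.23 CPM, against 14.7, 8.79 and 17.4 CPM in WT control, which overlapped (-0.44 ± 0.27, edgeR adjusted p = 0.354). Without KO LCA50 replicate 1 its KO change was -0.70 ± 0.28 (edgeR adjusted p = 0.197). It shares 12.1% of its exon bases with Vps51. The cyclase Lss (-0.29 ± 0.08), the desaturase Sc5d (-0.30 ± 0.08) and Dhcr7 (-0.61 ± 0.15), which carries out a last reduction before cholesterol, fell on average and were called within neither guide. The isomerase Ebp (-0.18 ± 0.09, edgeR adjusted p = 0.159) and the ketoreductase Hsd17b7 (0.08 ± 0.12, edgeR adjusted p = 0.722) were not called.

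**Figure D3:**
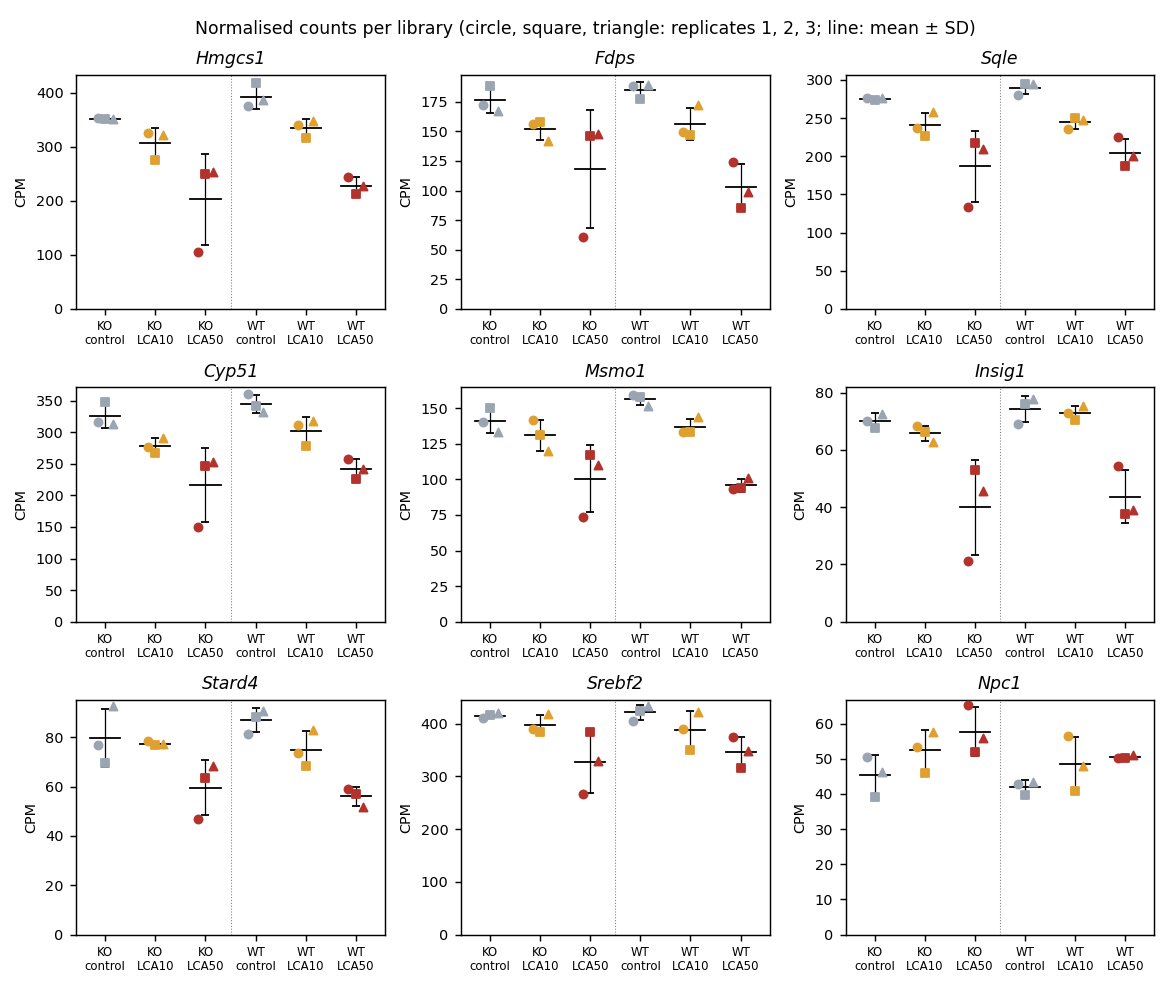
Level in CPM of 9 members in each library (points, with shape for the replicate), by guide and dose, with the mean and SD of each group as lines. Levels of the 8 members other than Npc1 are lowest at LCA50 with both guides, KO LCA50 replicate 1 (circle) is below replicates 2 and 3 for these 8, and Npc1 is highest at LCA50.

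Of the 6 genes that control SREBP, 3 fell at LCA50 averaged over the guides and 0 rose. In that comparison 8.66% of all tested genes fell and 7.86% rose. Insig1, which holds SCAP in the endoplasmic reticulum and is itself a target of SREBP2, fell with both guides. Its levels were 21.2, 52.9 and 45.6 CPM in KO LCA50, against 70.1, 67.5 and 72.7 CPM in KO control. In WT LCA50 they were 54.3, 37.6 and 39.1 CPM, against 69, 75.9 and 77.9 CPM in WT control. No LCA50 library reached a control library, and the changes were -0.80 ± 0.19 in KO (edgeR adjusted p = 0.0131) and -0.77 ± 0.19 in WT (edgeR adjusted p = 0.0135). Insig2, the paralog that does not depend on SREBP in the same way, stood at 37.9, 35.1 and 32.4 CPM in KO LCA50, against 34, 32.6 and 36.7 CPM in KO control, and at 31.5, 33.1 and 27.1 CPM in WT LCA50, against 26.4, 26 and 28.3 CPM in WT control. The groups overlapped, and its averaged change was 0.11 ± 0.10 (edgeR adjusted p = 0.516).

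Srebf2, which encodes SREBP2, was at 267, 385 and 329 CPM in KO LCA50, against 410, 416 and 420 CPM in KO control. In WT LCA50 it was at 375, 317 and 348 CPM, against 406, 425 and 435 CPM in WT control. It fell with both guides, by changes of -0.34 ± 0.09 in KO (edgeR adjusted p = 0.0156) and -0.28 ± 0.09 in WT (edgeR adjusted p = 0.0415), and the groups were apart with both guides. Averaged over guides the level of Srebf2 fell by 19.5%, while that of Hmgcs1 fell by 42.1%, that of Insig1 fell by 41.9% and that of Sqle fell by 30.8%. Mbtps1, the first protease that cuts SREBP, fell by 0.21 ± 0.07 on average (edgeR adjusted p = 0.0224) and was called within neither guide. The second protease gene, Mbtps2, had the lowest level per kilobase of the members at 0.62 CPM in WT control, shares 28.4% of its exon bases with Yy2 and was not called (0.25 ± 0.23). The escort gene Scap was not called for LCA on average (0.05 ± 0.06, edgeR adjusted p = 0.625).

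Of the 3 sterol transport genes, 2 fell and 1 rose at LCA50 averaged over the guides. In that comparison 8.66% of all tested genes fell and 7.86% rose. Stard4, a soluble carrier that moves cholesterol between membranes, stood at 47, 63.4 and 68.3 CPM in KO LCA50, against 77, 69.8 and 92.8 CPM in KO control. It was at 59.2, 57.2 and 51.9 CPM in WT LCA50, against 81.6, 88.5 and 90.8 CPM in WT control. The changes were -0.42 ± 0.12 in KO (edgeR adjusted p = 0.0294) and -0.63 ± 0.12 in WT (edgeR adjusted p = 0.00067), with no overlap. NPC2 and NPC1 pass cholesterol in turn from the inside of the lysosome to its membrane, and their genes went opposite ways. Npc2 had 161, 216 and 217 CPM in KO LCA50, against 249, 250 and 226 CPM in KO control, and 196, 157 and 141 CPM in WT LCA50, against 242, 214 and 226 CPM in WT control. It fell by 0.37 ± 0.07 on average (edgeR adjusted p = 0.000443). Npc1 had 65.3, 51.9 and 56 CPM in KO LCA50, against 50.6, 39.2 and 46.3 CPM in KO control, and 50.2, 50.2 and 51 CPM in WT LCA50, against 42.7, 39.5 and 43.3 CPM in WT control. It rose by 0.31 ± 0.09 on average (edgeR adjusted p = 0.0198) and was called within neither guide. Without KO LCA50 replicate 1 its averaged change was 0.26 ± 0.10 (edgeR adjusted p = 0.0666).

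By guide, 9 of the 28 genes fell and 0 rose in KO LCA50 against KO control, where 3.42% of all tested genes fell and 2.93% rose. In WT LCA50 against WT control 12 fell and 0 rose, where 4.93% fell and 3.66% rose. The median change of the members was -0.42 in KO and -0.45 in WT, against 0.00 and 0.01 for all tested genes. It was -0.27 in KO without KO LCA50 replicate 1, and -0.20 in WT with receptor background in the model. These comparisons share no library, but the spread of each gene was estimated over all 18 libraries for both. Their calls are therefore not independent. Acat2, Sqle, Cyp51, Msmo1, Nsdhl, Insig1, Stard4 and Srebf2 fell with both guides, 8 genes that make up 88.9% of the KO calls and 66.7% of the WT calls. Counting libraries in place of tests, 19 members were lower and 1 higher in every KO LCA50 library than in every KO control library, where 11.9% of all tested genes were lower and 11.5% higher. In WT the counts were 17 lower and 2 higher, where 13.7% were lower and 13.1% higher. Over all 12 libraries of both guides, 13 members were lower in every LCA50 library than in every control library and 0 were higher, where 3.55% of tested genes were lower and 2.66% higher.

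**Figure D4:**
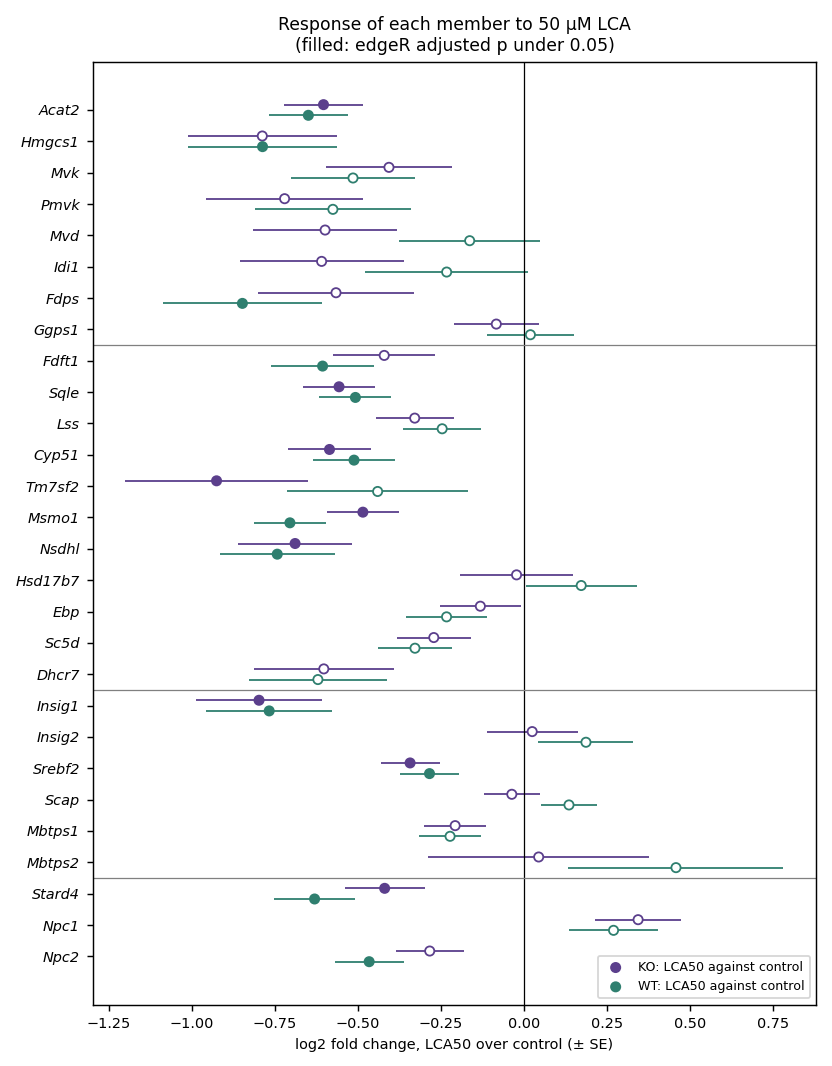
Change of each member at LCA50 over control as log2 fold change ± standard error, with KO above WT in each row and filled points for an edgeR adjusted p under 0.05. Filled points are 9 in KO and 12 in WT, all left of 0.

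Leaving out KO LCA50 replicate 1 lowered the KO count to 5 of 28, where 2.07% of all tested genes fell. The 5 were Acat2 (-0.49 ± 0.12), Hmgcs1, Sqle (-0.37 ± 0.08), Cyp51 (-0.38 ± 0.08) and Insig1 (-0.51 ± 0.13), of which 4 were also called with all libraries. Tm7sf2, Msmo1, Nsdhl, Stard4 and Srebf2 lost their calls in KO, with Nsdhl at -0.55 ± 0.18 (edgeR adjusted p = 0.0796), Msmo1 at -0.31 ± 0.09 (edgeR adjusted p = 0.0513), Stard4 at -0.28 ± 0.12 (edgeR adjusted p = 0.24) and Srebf2 at -0.22 ± 0.08 (edgeR adjusted p = 0.134). All of them stayed below 0. With receptor background in the model, 16 members fell in KO, where 4.52% of all genes fell, and 2 in WT, where 1.18% fell. In WT the background was higher in every LCA50 library than in every control library, so background and dose moved together there. The 2 in WT were Msmo1 (-0.54 ± 0.13, edgeR adjusted p = 0.017) and Mbtps1 (-0.42 ± 0.11, edgeR adjusted p = 0.0327), while Hmgcs1 stood at -0.43 ± 0.26 and Insig1 at -0.32 ± 0.18 in WT. Without both libraries of highest background 16 members fell in WT, where 4.46% of all genes fell, and 5 in KO, where 2.03% fell, so the WT count moved down with the covariate and up without those libraries. Averaged over guides, 14 members fell with the covariate, where 5.52% of all genes fell, 16 fell without both libraries, where 6.28% fell, and 19 fell without KO LCA50 replicate 1, where 7.38% fell. The WT count of 12 was 6 without WT LCA50 replicate 2 and 6 without WT LCA50 replicate 3. The KO count of 9 was 4 without KO control replicate 3 and 15 without KO LCA50 replicate 2. For these left-out libraries the share of all tested genes was not counted.

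**Figure D5:**
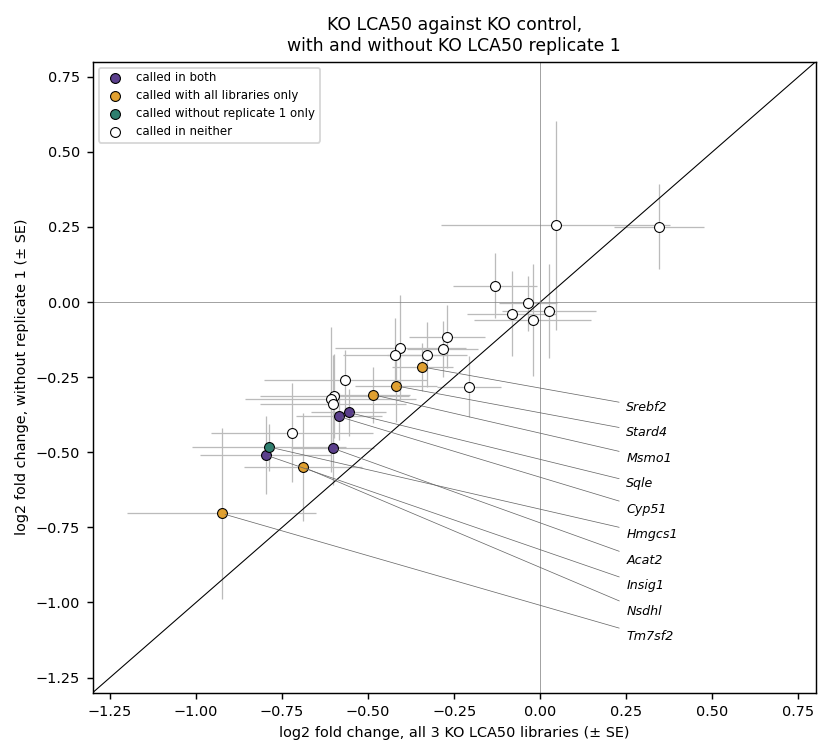
Change of each member at LCA50 over control in KO cells, with all 3 KO LCA50 libraries (horizontal axis) and without replicate 1 (vertical axis), as log2 fold change ± standard error. Most of the points below 0 lie above the diagonal, which marks equal changes, so most falls were smaller without replicate 1, and 4 members were called both ways.

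At 10 µM no member was called. In KO LCA10 against KO control 0 of 28 fell or rose by edgeR, where 0.12% of all genes fell and 0.206% rose, and 0 passed an unadjusted p under 0.05, where 7.81% of all genes did. In WT LCA10 against WT control 0 fell or rose, where 0.172% fell and 0.215% rose, and 1 was lower at an unadjusted p under 0.05 (Sqle, -0.25 ± 0.11), where 3.7% of all genes were. Averaged over guides 0 fell or rose, where 0.807% fell and 1.01% rose, while 4 members were lower and 1 higher at an unadjusted p under 0.05, where 5.54% of all genes were lower and 6.27% higher. Those were Sqle (-0.22 ± 0.08), Cyp51 (-0.21 ± 0.09), Fdft1 (-0.24 ± 0.11) and Acat2 (-0.18 ± 0.08), and Npc1 (0.21 ± 0.09). DESeq2 also called 0 in each of these 3 comparisons, while edgeR on the compared groups alone called 5 averaged over guides. The share of all tested genes was not counted in that fit. The median change at LCA10 was -0.11 in KO and -0.14 in WT. Counting libraries, 7 members were lower and 0 higher in every KO LCA10 library than in every KO control library, where 7.24% of tested genes were lower and 7.75% higher. In WT 10 were lower and 0 higher, where 7.07% were lower and 6.81% higher. Over both guides, Hmgcs1, Fdft1 and Sqle were lower in each of the 6 LCA10 libraries than in each of the 6 control libraries and 0 members were higher, where 0.798% of tested genes were lower and 0.781% higher.

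The means of most members fell in order over the doses, an order that was not counted over all tested genes. In 21 of 28 members with the KO guide and 20 of 28 with the scrambled guide, the mean was highest in control, lower at LCA10 and lowest at LCA50. Sqle showed it with both guides, with 275 ± 1.52, 241 ± 15.5 and 187 ± 46.2 CPM in KO control, LCA10 and LCA50, and 290 ± 8.73, 244 ± 8.07 and 204 ± 19.1 CPM in WT (SD, n = 3 each). Insig1 kept most of its level at LCA10, with 70.1 ± 2.59, 65.7 ± 2.71 and 39.9 ± 16.6 CPM in KO and 74.2 ± 4.67, 72.8 ± 2.48 and 43.6 ± 9.25 CPM in WT. Between LCA50 and LCA10, averaged over guides, 9 members fell and 0 rose, where 3.47% of all genes fell and 2.26% rose. They were Msmo1 (-0.44 ± 0.08), Acat2 (-0.44 ± 0.09), Insig1 (-0.72 ± 0.14), Stard4 (-0.40 ± 0.09), Npc2 (-0.30 ± 0.07), Nsdhl (-0.50 ± 0.12), Sqle (-0.31 ± 0.08), Cyp51 (-0.34 ± 0.09) and Srebf2 (-0.22 ± 0.06). Without KO LCA50 replicate 2 the count was 14, where the share of all tested genes was not counted. In every LCA50 library compared with every LCA10 library, 6 members were lower and 0 higher, where 1.36% of tested genes were lower and 0.824% higher. The comparisons of each dose with control use the same control libraries.

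Between guides, 1 member was called over the 3 doses. In KO control against WT control 0 members fell or rose by edgeR, where 0.3% of all genes fell and 0.326% rose. At an unadjusted p under 0.05, where 3.92% of all genes were lower and 4.77% higher, 0 were lower and 1 was higher, Insig2 (0.36 ± 0.14, edgeR adjusted p = 0.373), with 34, 32.6 and 36.7 CPM in KO control, against 26.4, 26 and 28.3 CPM in WT control. Counting libraries, 7 members were lower and 1 higher in KO control than in WT control, where 7.51% of tested genes were lower and 8.35% higher. The 7 were Hmgcs1, Mvk, Fdft1, Sqle, Msmo1, Sc5d and Mbtps1. In KO LCA10 against WT LCA10 0 fell or rose, where 0.249% fell and 0.412% rose, and 1 was higher at an unadjusted p under 0.05, where 4.98% of all genes were, again Insig2 (0.30 ± 0.14). There 1 member was lower and 1 higher in every library, where 6.56% of tested genes were lower and 7.59% higher. DESeq2 called 0 in both comparisons. In KO LCA50 against WT LCA50 1 fell and 0 rose, where 0.524% fell and 1.42% rose. This was Scap, with 143, 162 and 143 CPM in KO LCA50, against 183, 190 and 182 CPM in WT LCA50, which did not overlap (-0.31 ± 0.08, edgeR adjusted p = 0.0426). Its call was lost in 9 of 14 other settings, among them without KO LCA50 replicate 1 (-0.28, edgeR adjusted p = 0.0928). Without that replicate 2 other members were called higher in KO LCA50 than in WT LCA50, Fdps (0.52 ± 0.10, edgeR adjusted p = 0.00152) and Npc2 (0.40 ± 0.09, edgeR adjusted p = 0.00992), where 0.884% of all genes were lower and 2.28% higher. With all libraries, 1 member was lower and 1 higher in every KO LCA50 library than in every WT LCA50 library, Scap and Npc1, where 7.51% of tested genes were lower and 8.37% higher. Myeloid marker sums also differed between guides, at 12.4 to 26.7 CPM over the KO groups and 41.6 to 79.3 CPM over the WT groups. Red cell and platelet sums were 0.754 to 6.25 CPM in KO control, against 31.6 to 57.3 CPM in WT control. They were 5.36 to 22.6 CPM in KO LCA10, against 3.71 to 13.7 CPM in WT LCA10. At LCA50 they were 4.75 to 7.87 CPM in KO, against 12.4 to 47.4 CPM in WT. The part of these markers in these comparisons was not tested.

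The test of whether the response differed, KO minus WT, called 0 members at LCA50 and 0 at LCA10 by edgeR, where 0% of all genes were called in either direction at either dose. At an unadjusted p under 0.05 it gave 0 members at LCA50, where 6.26% of all genes passed, and 0 at LCA10, where 3.28% passed, and DESeq2 called 0. The difference at LCA50 was 0.05 for Acat2 (95% interval -0.29 to 0.38), -0.05 for Sqle (-0.35 to 0.25), -0.07 for Cyp51 (-0.42 to 0.27) and -0.03 for Insig1 (-0.56 to 0.50). For Hmgcs1 it was 0.00 with an interval of -0.61 to 0.61. The smallest unadjusted p belonged to Scap (-0.17 ± 0.12). Without KO LCA50 replicate 1 the test called 0 members, while 6 passed an unadjusted p under 0.05, Fdps, Msmo1, Hmgcs1, Fdft1, Npc2 and Stard4, each with a smaller fall in KO than in WT, where 5.25% of all genes passed in that direction. The median difference was then 0.15, against -0.02 with all libraries. With receptor background in the model it ran the other way, with a median of -0.25, 24 of 28 members negative, 0 called, and 5 lower at an unadjusted p under 0.05, where 3.39% of all genes were. Without both libraries of highest background the median was 0.12, 0 were called and 4 were higher at an unadjusted p under 0.05, where 4.03% of all genes were. The direction of the difference thus depended on the setting. These intervals are wide beside the responses themselves, so a missed threshold does not show equal responses.

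Neighbouring parts of lipid metabolism were read from 3 lists at LCA50 averaged over the guides. Of all tested genes, 8.66% fell and 7.86% rose in that comparison. The lists were not counted under the other settings. Other targets of the SREBP factors, which serve fatty acid and acetyl-CoA supply, fell in 11 of 15 cases and rose in 0, with a median of -0.45. Among them the desaturase Scd1 fell by 3.11 ± 0.34, the acetyl-CoA synthetase Acss2 by 0.95 ± 0.15, and Srebf1, which encodes the sister factor SREBP1, by 0.46 ± 0.06. Genes that esterify, bind, export or degrade sterol or its enzymes did not move one way, with 4 lower and 2 higher of 20 and a median of 0.00. The exporter Abcg1 fell by 2.51 ± 0.22, the sterol reductase and lamin receptor Lbr by 0.37 ± 0.05 and the lysosomal lipase Lipa by 0.33 ± 0.08. Erlin2 (0.34 ± 0.12), which takes part in the degradation of sterol-regulated proteins, was among those that rose. Of 10 tested targets of the liver X receptors, which sense oxysterols and drive export, 7 fell and 0 rose, with a median of -1.09, and the phospholipid transfer gene Pltp fell by 1.39 ± 0.19. The lists share genes, Abcg1, Srebf1 and Scd1 among them, so their counts are not separate results.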

How the data were processed

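RNA was measured in 18 libraries of mouse CD8+ T cells, grouped by guide and LCA dose from the labels. The deposited table holds raw counts per gene symbol as the authors made them, with no normalization. STAR, HOMER and DESeq2 and the builds GRCm38 and mm10 are named, per the submitters' processing notes, without versions or roles. Trimming, the counting rule and its strand setting are not given in the sources used here, so overlapping and near-identical genes are uncertain. Depth was 4113713 to 5945518 counts per library.

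In edgeR 4.0.16 (R 4.3.3, limma 3.58.1) the genes were filtered by group with filterByExpr, scaled by TMM and fitted with a robust quasi-likelihood model of 6 group means over all 18 libraries. F tests for 12 contrasts were adjusted by Benjamini-Hochberg over 11651 genes, and an adjusted p under 0.05 was a call. Standard errors were taken as |log2 fold change| divided by the root of F. CPM are on TMM-scaled library sizes, except for receptor background, which is on total counts. The code was checked on simulated data. Alternatives were DESeq2 1.42.0, its size factors, a fit of the compared groups, no filter, a mean CPM of at least 5, a block for replicate number, leaving out each library, a receptor background covariate, and both libraries of highest background left out.

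Coordinates and exon lengths came from GENCODE for GRCm38, promoter windows from RefSeq, and copies from blastn 2.17.0 (at least 95% identity over 200 bases). Named were all 28 members, Nr4a1 and, of each neighbouring list, up to 3 called genes with the smallest p in each direction. The members, lists and settings were chosen with earlier results of these data known. Some genes of the pathway are not reported here.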

Additional observations from a re-analysis of the deposited data

How the results depend on the processing

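Calls in either direction at LCA50 averaged over the guides were 20 as reported and 17 to 21 with 1 library left out. In that comparison Acat2, Hmgcs1, Fdps, Fdft1, Sqle, Cyp51, Msmo1, Nsdhl, Dhcr7, Insig1, Srebf2, Stard4 and Npc2 kept their calls under all 20 alternatives run. Lss, Mbtps1, Mvk, Npc1, Pmvk, Sc5d and Tm7sf2 lost theirs under 1 to 5 of them. Within guides the counts depended more on the libraries. In KO LCA50 they were 9 as reported, 2 in a fit of the compared groups only, 15 with no filter, 16 with the receptor background covariate, and 5 without both libraries of highest background. In WT LCA50 they were 12 as reported, 2 with the covariate and 16 without both libraries of highest background. With 1 library left out they ran from 4 (without KO control replicate 3) to 15 (without KO LCA50 replicate 2) in KO and from 6 (without WT LCA50 replicate 2) to 13 in WT. Averaged LCA10 gave 0 as reported, and 5 calls in the compared groups only, 2 with no filter and 1 with the covariate. LCA50 against LCA10 gave 9 as reported, 14 with no filter, 2 with the covariate and 6 (without WT LCA10 replicate 3) to 14 with 1 library left out. KO LCA50 against WT LCA50 gave 1 call in either direction as reported, 0 in the compared groups only, with no filter and with the replicate block, 2 with the covariate, and 0 to 2 with 1 library left out. With 1 library left out, the other comparisons gave 0. No change in sign occurred among calls. Over 15 pairs of groups, 0 had same-numbered libraries that all deviated together (correlations -0.218 to 0.088). With 3 libraries a group, this cannot show whether same-numbered libraries shared a mouse or culture. With the replicate block 9 members were called in KO LCA50, 10 in WT LCA50 and 20 averaged over the guides. DESeq2 called 11, 13 and 20. Where no share of all tested genes is given for a setting, a shift over all genes cannot be told from a shift of the members. The cause of these shifts was not tested. With 3 libraries a group, the median standard error over all genes was 0.153 in KO LCA50 and 0.155 in WT LCA50. The median change of the members at LCA10 was -0.11 in KO and -0.14 in WT. Whether changes of that size could be called was not tested.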
